A study of Mus musculus with 2 samples.

Results

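The 10 interferon gamma inducible genes of the mouse small intestine described here are 5 immunity-related GTPases (Igtp, Irgm1, Irgm2, Iigp1 and Tgtp1), 4 guanylate-binding proteins (Gbp2, Gbp3, Gbp4 and Gbp6) and the ubiquitin-like modifier Ubd. Their probes are the 13 spots that are not array controls and carry 1 of these gene names, and the genes were selected on ratios already known from the same 2 arrays. All counts and ratios of the 10 genes are therefore descriptions, with no test. All 10 were among the 17162 genes measured, and 12 of their 13 probes were bright enough to be read.

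Small intestines of C57BL/6 mice, 6 to 8 weeks old, gave the total RNA. One group ate conventional chow (Conv). The other was kept for as many as 5 generations on a food antigen-free diet (FAF), in which amino acids take the place of food protein. The labels speak of specific-pathogen-free and of germ-free animals without saying which gave this RNA, and the sources used here do not give the number of mice behind each RNA sample. There was 1 RNA sample per diet, hybridised to 2 two-colour arrays with the dyes exchanged, so no spread between mice can be given. A ratio below is the log2 of FAF over Conv, averaged over the 2 arrays, and the value after ± is the distance of each array from that average, which measures dye and hybridisation error only. Normalised spot intensity has no unit and is compared between the diets within a probe, never between genes. Where intensities are summed over a list of markers, the sum is weighted towards its brightest probes. With RNA from whole tissue, fewer cells of a type and less RNA per cell cannot be told apart.

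Interferon gamma, made by T cells and natural killer cells, binds a receptor on its target cells. Target promoters are known to carry the gamma-activated sequence (GAS), and interferon regulatory factors such as IRF1 bind another element, the interferon-stimulated response element (ISRE). The immunity-related GTPases and the guanylate-binding proteins are large GTPases of the dynamin superfamily that gather on the membranes of vacuoles holding bacteria or parasites. Within the first family, Irgm1, Irgm2 and Igtp (also called Irgm3) are regulators that sit on the cell's own membranes and keep effector GTPases such as Iigp1 (Irga6) and Tgtp1 (Irgb6) in check. Ubd encodes FAT10, which is joined to proteins and sends them to the proteasome, and which interferon gamma and TNF induce together.

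The promoters of the members are shown because interferon signalling is known to reach target genes through GAS and ISRE. RefSeq windows of assembly GRCm38.p6, from 250 bases before to 50 bases after the annotated start, were found for 7 of the 10 members, and Iigp1, Gbp4 and Gbp6 had none. Each window was searched for GAS as TTCNNNGAA, which reads the same on the other strand, and for ISRE as GAAA, any 2 bases and GAAA again or, on the other strand, TTTC, any 2 bases and TTTC again. GAS and ISRE matches were allowed to overlap. ISRE was found in 6 of the 7 members and in 3.44% of all 32851 windows. GAS was found in 3 members and in 8.3% of all windows, and the 3 members that held it held ISRE as well, which 0.454% of all windows did. The last 100 bases before each start follow, 5′ to 3′ in the direction of the gene, with GAS and ISRE in capitals.

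Igtp, chr11:58199456-58199555, plus strand: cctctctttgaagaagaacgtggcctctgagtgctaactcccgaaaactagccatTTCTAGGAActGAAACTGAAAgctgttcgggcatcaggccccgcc

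Irgm2, chr11:58214877-58214976, plus strand: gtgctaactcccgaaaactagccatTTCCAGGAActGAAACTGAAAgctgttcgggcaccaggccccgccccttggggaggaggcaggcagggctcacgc

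Tgtp1, chr11:48992247-48992346, minus strand: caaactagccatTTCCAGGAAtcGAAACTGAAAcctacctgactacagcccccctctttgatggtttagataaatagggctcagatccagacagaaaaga

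Irgm1, chr11:48871421-48871520, minus strand: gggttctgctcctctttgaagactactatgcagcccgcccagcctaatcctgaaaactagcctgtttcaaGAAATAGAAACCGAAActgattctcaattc

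Gbp2, chr3:142620563-142620662, plus strand: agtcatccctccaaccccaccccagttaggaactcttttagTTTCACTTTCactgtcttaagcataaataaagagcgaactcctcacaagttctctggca

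Gbp3, chr3:142559944-142560043, plus strand: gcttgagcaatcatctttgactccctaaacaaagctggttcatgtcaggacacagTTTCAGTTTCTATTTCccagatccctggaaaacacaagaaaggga

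Ubd, chr17:37193792-37193891, plus strand: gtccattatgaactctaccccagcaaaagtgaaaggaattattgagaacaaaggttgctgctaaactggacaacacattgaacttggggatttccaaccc

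In Igtp, Irgm2 and Tgtp1, GAS was followed after 2 bases by ISRE, in a run of 21 bases. That run lay in the windows of 5 genes out of 27025, and the other two were Tgtp2 and Gm12185, which are immunity-related GTPases too. In Igtp it began 45 bases before the start, in Irgm2 75 bases and in Tgtp1 88 bases. The spacing was noticed after the windows were read. Irgm1 held 2 overlapping ISRE matches 30 to 15 bases before its start and no GAS. Gbp2 held ISRE on the other strand, 59 to 50 bases before its start. Gbp3 held 2 overlapping matches on that strand, and a second annotated start of Gbp3 had neither motif. The Ubd window had neither motif, which says only that these letters are not in this window. The genes with the shared run spanned a wide range of ratios: Igtp stood at -1.81, Irgm2 at -1.13 and Tgtp1 at -0.20.

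Ubd had the lowest ratio of the 10 genes. Its intensity in Conv was 3528 on the array with FAF in Cy5 and 3748 on the array with FAF in Cy3. In FAF it was 551 and 543. The diets were thus far apart on either array, and the ratio was -2.73 ± 0.05, or 6.65-fold lower in FAF. Only 3 of the 17162 genes had a lower ratio. The probe lies on chromosome 17 at 37332688 to 37332747, in build mm9 of the array files. Whether a probe falls in an exon or an untranslated region was not analysed here, for this and all other probes.

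The Irgm regulators all stood lower in FAF. Igtp, whose probe spans positions 58020927 to 58020986 of chromosome 11, gave intensities of 8433 and 8588 in Conv and of 2446 and 2401 in FAF. Its ratio was -1.81 ± 0.03, or 3.51-fold lower, and 21 genes of all those measured were lower still. Irgm2, its neighbour on chromosome 11 (probe at 58036064 to 58036123), gave 3929 and 4071 in Conv against 1963 and 1706 in FAF. That is a ratio of -1.13 ± 0.13, or 2.19-fold lower, with the widest gap between the arrays among the members. Irgm1, in another cluster of the same chromosome (48679069 to 48679128), gave 1574 and 1584 in Conv and 883 and 965 in FAF. The FAF values of these 3 genes lay below the Conv values on both arrays.

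Irgm1 had 2 readable probes with close ratios, at -0.78 ± 0.06 on the brighter one and -0.84 ± 0.07 on the other, so the gene was 1.71-fold lower by the first and 1.79-fold lower by the second. The remaining Irgm1 probe, designed on another transcript, stayed near background in both diets, so its ratio of -0.04 ± 0.07 says nothing of the gene.

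The effector GTPases among the members differed less between the diets. Iigp1, the best studied of them, gave 1560 and 1392 in Conv and 1139 and 1191 in FAF, a ratio of -0.34 ± 0.11. The 2 arrays were 0.45 and 0.22 below 0 in log2, so the size of this difference is poorly fixed even by the technical repeat. Its probe is on chromosome 18 at 60552153 to 60552212. Tgtp1 gave 1052 and 1082 in Conv and 933 and 921 in FAF, a ratio of -0.20 ± 0.03. A dimmer Tgtp1 probe, well above background in Conv on 1 array only, stood at 0.04 ± 0.03, and the mean over both probes was -0.08. For either effector, Conv exceeded FAF on both arrays, by 1.27-fold for Iigp1 and 1.15-fold for the brighter probe of Tgtp1.

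Both Tgtp1 probes list transcripts of Tgtp1 and of its near-identical neighbour Tgtp2, so their signal cannot be assigned to 1 of these genes. The brighter of these probes is printed as an example of a shared probe. It lies on the minus strand of chromosome 11 at 48800173 to 48800232 in mm9 and has 60 bases, read 5′ to 3′.

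Tgtp1 and Tgtp2 probe: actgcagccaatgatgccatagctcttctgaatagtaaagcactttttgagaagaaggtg

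The guanylate-binding proteins were close to equal in the diets or only slightly lower in FAF. Gbp6, on chromosome 5 at 105700081 to 105700140, was the lowest of them, with intensities of 212 and 217 in Conv and of 152 and 154 in FAF. Its ratio was -0.49 ± 0.01, or 1.4-fold lower, and -0.82 in the scanner software's own ratio, the widest shift that processing gave any member. Gbp2, which takes part in the lysis of bacterial vacuoles, lies on chromosome 3 at 142300719 to 142300778. It gave 1170 and 1275 in Conv and 1000.4 and 946 in FAF, a ratio of -0.33 ± 0.10.

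Gbp3 and Gbp4 were not lower in FAF. Gbp3 (chromosome 3, 142236072 to 142236131) gave 1081 and 1131 in Conv and 1160.4 and 1183 in FAF, a ratio of 0.08 ± 0.02. Gbp4 (chromosome 5, 105547080 to 105547139) gave 179 and 168 in Conv and 201 and 187 in FAF, a ratio of 0.16 ± 0.01. Without background correction Gbp6 stood at -0.60 and Gbp4 at 0.17. Across all genes the median distance of each array from the mean was 0.06, and the 95th percentile of that distance was 0.17. The small ratios of Gbp3 and Gbp4 lay below that percentile, although the arrays were close together for both genes.

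**Figure D1:**
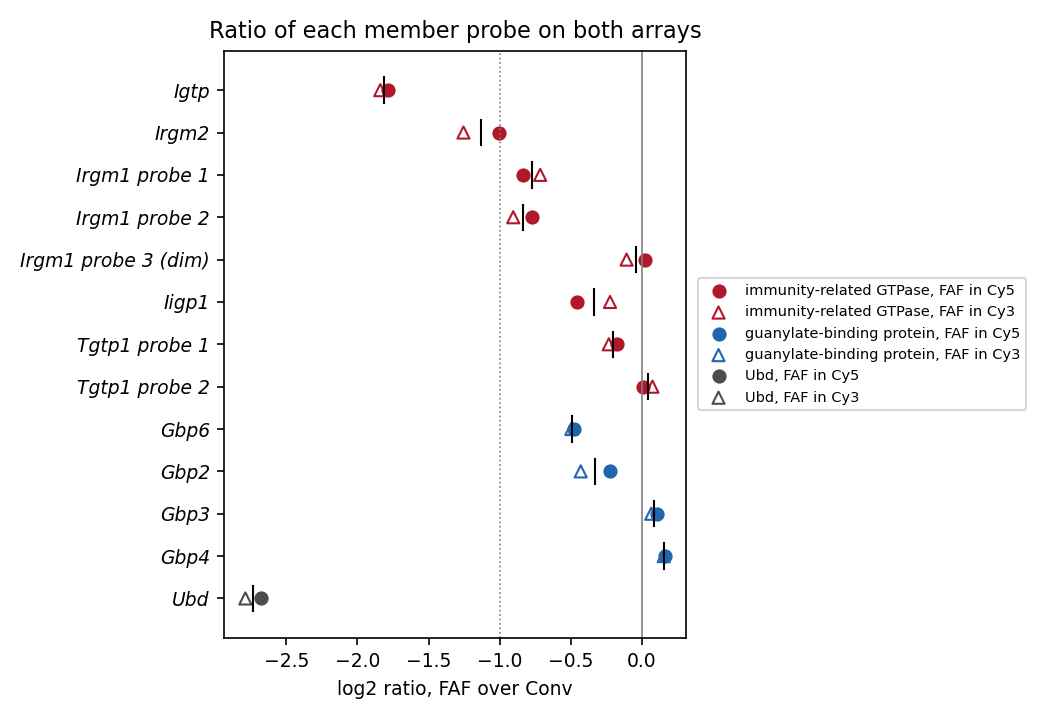
Log2 ratio of FAF over Conv (x axis) for each of the 13 member probes (y axis), with filled circles for the array with FAF in Cy5, open triangles for the array with FAF in Cy3 and a black bar at their mean. The dotted line marks a 2-fold lower level: Ubd, Igtp and Irgm2 have their mean below it, and the guanylate-binding proteins lie between -0.49 and 0.16.

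**Figure D2:**
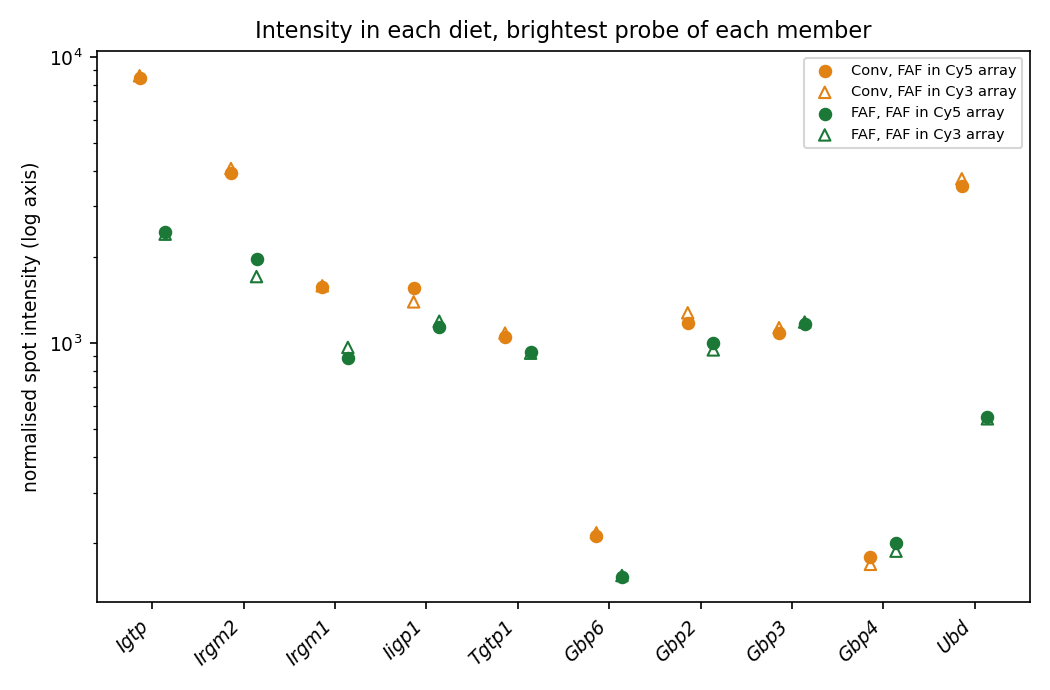
Normalised spot intensity (log axis) of the brightest probe of each member in Conv (orange) and FAF (green), with circles and triangles for the 2 arrays. The diets are far apart for Ubd, at 3528 and 3748 against 551 and 543, and nearly meet for Tgtp1 and Gbp3; heights are not comparable between genes.

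Genes counted as different between the diets had a mean ratio of 2-fold or more and reached 1.5-fold in the same direction on each array. This rule of size held for 3 of the 10 members, Ubd, Igtp and Irgm2, all lower in FAF. Over all 17162 genes, 0.880% passed as lower and 1.53% as higher. Since the members were chosen from this same contrast, nothing is read from that difference. Over the 10 members 8 ratios were below 0 on both arrays, and the median was -0.41. The median of all genes was 0.00, and 50.2% of genes were below 0.

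In the comparison of the families, the 5 immunity-related GTPases had a median of -0.78 and the 4 guanylate-binding proteins a median of -0.12. All 5 of the former were below 0 on both arrays and 2 passed the rule. Of the latter, 2 were below 0 and 0 passed. The medians differed by 0.65 in log2, by 0.77 on the array with FAF in Cy5 and by 0.53 on the other. Of the 20 pairs of a gene from each family, the immunity-related GTPase was lower in 17, and in 16 all values of the 2 arrays were apart. The exceptions were Tgtp1 beside Gbp2 and Gbp6, and Iigp1 beside Gbp6. Irgm1 and Gbp6, counted among the 16, had overlapping array values in the scanner software's ratio. With median centring of each array further pairs overlapped, such as Irgm2 (-0.25 and -1.91) and Gbp2 (0.46 and -1.01). Without Igtp the medians still differed, by 0.44, or 0.58 and 0.29 on the single arrays. No test of this difference is given, because the genes were picked with their ratios known.

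The Irgm regulators were the lowest of the member GTPases. Their median was -1.13, against -0.27 for the effectors Iigp1 and Tgtp1, which lie within the range of the guanylate-binding proteins. This grouping by role was made after the values were seen, and it covers members only. Ifi47, an immunity-related GTPase that is neither a member nor an Irgm regulator, stood at -0.85 ± 0.06. That is lower than Irgm1, at -0.78 ± 0.06. In the order of the ratios, Ubd, Igtp, Irgm2, Irgm1 and Gbp6 each stood apart from the next gene on both arrays. The separation of Irgm1 from Gbp6 was lost in the scanner software's ratio. There the arrays gave -0.93 and -0.76 for Irgm1 and -0.84 and -0.79 for Gbp6. In the rest of the order, the array values of Iigp1 overlapped those of Gbp2, and those of Gbp2 overlapped those of Tgtp1. Gbp3 and Gbp4 closed the order at its upper end.

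Other genes of the same families gave further values outside the 10. Of 8 other immunity-related GTPase genes on the array 4 were readable, all 4 were below 0, and 0 passed the rule, with a median of -0.31. Ifi47 (Irgd), beside Tgtp2 on chromosome 11, gave 2121 and 2160 in Conv and 1225 and 1155 in FAF, a ratio of -0.85 ± 0.06. Gm12250 (Irgb10), next to Igtp, was readable in Conv only and was at least 1.27-fold lower in FAF. Gm5431, near Irgm1, was also readable in Conv only, at least 1.21-fold lower. Irgq, a distant relative, stood at -0.04 ± 0.07.

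Among the remaining guanylate-binding proteins and the related atlastins, all 8 genes on the array were readable, 2 were below 0 and 0 passed the rule, with a median of 0.12. Gbp8 was the highest, with 371 and 331 in Conv and 645 and 614 in FAF, a ratio of 0.84 ± 0.05, but its other probe stood at 0.29. Gbp2b (Gbp1) had 0.53 ± 0.12, Gbp9 0.17 ± 0.02, Gbp7 0.03 ± 0.04 and Gbp5 -0.07 ± 0.12. The atlastins, which shape the endoplasmic reticulum, gave 0.80 ± 0.10 for Atl2, 0.07 ± 0.02 for Atl3 and -0.20 ± 0.07 for Atl1.

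The families lie in gene clusters, by RefSeq order in GRCm38.p6. The cluster of chromosome 3 runs from Gbp5 and Gbp7 through Gbp3 and Gbp2b to Gbp2 and the pseudogene Gbp2-ps. Its readable genes had ratios from -0.33 to 0.53. The cluster of chromosome 5 holds Gbp8, Gbp9, Gbp4, Gbp10, Gbp6 and the pseudogene Gbp11. No probe was named for Gbp2-ps, Gbp10 or Gbp11. Gbp8, Gbp9, Gbp4 and Gbp6 had ratios of 0.84, 0.17, 0.16 and -0.49 in that order. Igtp and Irgm2 are next to each other, at -1.81 and -1.13. Of the 29 nearest genes outside the families, 2 were readable: Mrpl22, a mitochondrial ribosomal protein beside the Igtp cluster, at -0.31 ± 0.04, and Pdlim5, beside the Gbp3 cluster, at -0.01 ± 0.01.

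**Figure D3:**
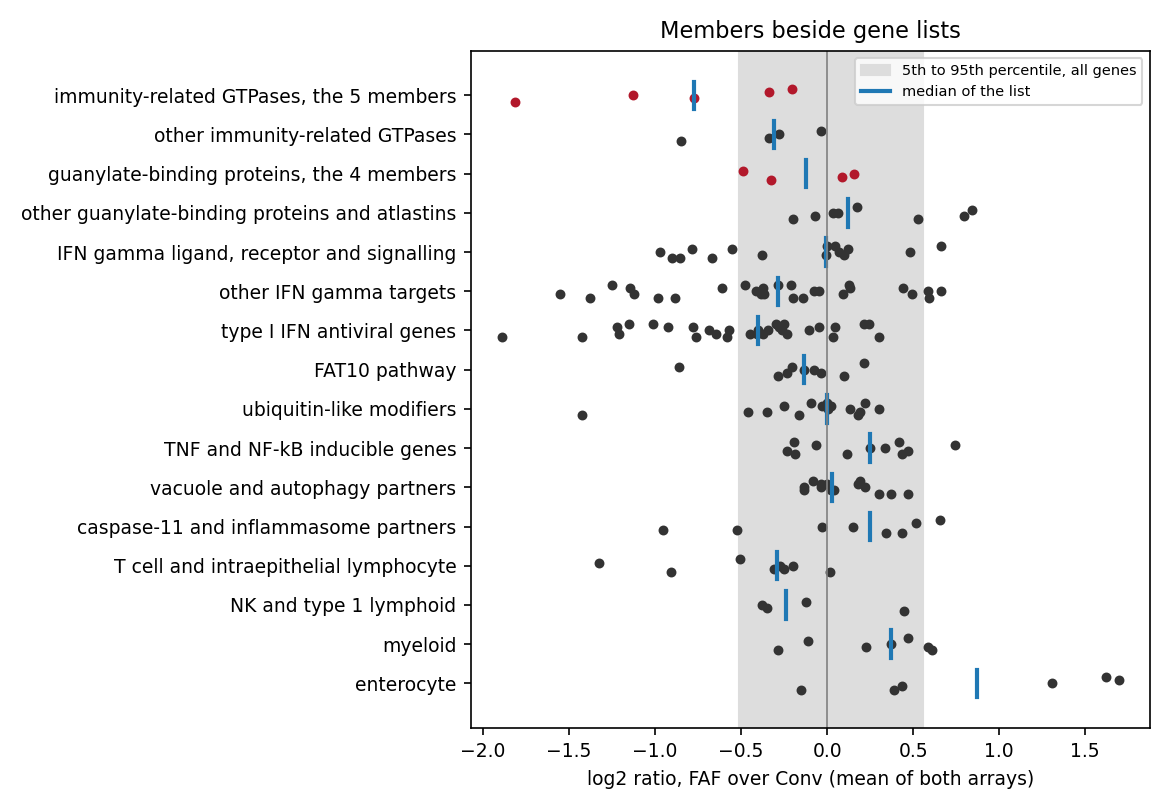
Log2 ratio of FAF over Conv, mean of both arrays (x axis), for the readable genes of the lists named (y axis, 1 point a gene, red for the members), with the list median as a blue bar and the 5th to 95th percentile of all genes, -0.51 to 0.56, in grey. The 5 immunity-related GTPases have a median of -0.78 and enterocyte markers one of 0.87; Ubd, at -2.73, and adipocyte markers, with a median of -2.08, are not drawn.

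The list of interferon gamma ligand, receptor and signalling genes, not all of them upstream of the members, was mixed. Of its 15 readable genes, 0 passed the rule, 9 were below 0, and the median was 0.00. The ligand Ifng was readable in Conv only, at intensities of 119 and 135, and was at least 1.59-fold lower in FAF on that probe. Its other probe stood at -0.34. The receptor chains were not lower, with Ifngr1 at 0.10 ± 0.07 and Ifngr2 at 0.48 ± 0.03. Irf1 had -0.38 ± 0.07, and its dimmer probe stood at -0.18. Socs1, the feedback inhibitor of the receptor, had -0.90 ± 0.01, and Ciita, the master regulator of MHC class II genes, -0.97 ± 0.07, both just short of the rule.

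Other targets of interferon gamma were lower in part. Of 27 readable genes 5 passed as lower and 0 as higher, 19 were below 0, and the median was -0.28. Those for loading or presenting peptides on MHC class II were the H2-DM chains H2-DMb1 (-1.55 ± 0.11) and H2-DMa (-1.38 ± 0.02), the class II chain H2-Aa (-1.25 ± 0.09) and the invariant chain Cd74 (-1.15 ± 0.04). The fifth was Psmb9, a subunit of the immunoproteasome, at -1.13 ± 0.02, named here after its value was seen. The chemokines Cxcl9, Cxcl10 and Cxcl11, also singled out after their values were seen, had -0.20, 0.09 and 0.66. Of 30 antiviral genes that type I interferon induces, 6 passed as lower and 0 as higher, with a median of -0.40. They included the nucleic acid sensor Zbp1 (-1.89 ± 0.07), the ubiquitin-like Isg15 (-1.42 ± 0.12), its protease Usp18 (-1.21 ± 0.08) and Oasl2 (-1.22 ± 0.10).

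Among genes that induce interferon gamma, 10 of 15 were readable. Only Il15, a cytokine that sustains intraepithelial lymphocytes, passed the rule. It was higher in FAF at 1.32 ± 0.05, and its other probe stood at 0.42. In the list of type I and type III interferons and their receptors, the 4 readable genes were all receptor chains. All 4 were above 0, with Il10rb at 0.68 ± 0.00 and Ifnlr1 at 0.52 ± 0.28. The interferon genes on the array, Ifnb1, Ifna2, Ifna4 and Ifnl3, were not readable. TNF and NF-kB inducible genes had a median of 0.25 over 11 readable genes and 0 past the rule. Ccl20 stood highest among these, at 0.74 ± 0.10, and Relb had 0.47 ± 0.06. The lowest readable gene of that list was at -0.23. Tnf itself was readable in Conv only, and Cxcl1, Cxcl2 and Il6 were not readable. Ubd, which TNF also induces, stood at -2.73, and a part of TNF in its ratio was not tested.

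No gene of the FAT10, autophagy, inflammasome or dynamin lists passed the rule. Of 9 readable genes of the FAT10 pathway, 0 passed the rule, and the median was -0.13. Mad2l1, a spindle checkpoint protein that FAT10 binds, had -0.86 ± 0.07, and -0.88 on its other probe. The segregase Vcp had -0.29 ± 0.06. Of 15 ubiquitin-like modifiers Isg15 alone passed, and the median was 0.00. Vacuole and autophagy partners of the GTPases, such as the conjugation enzyme Atg3 at 0.37 ± 0.09 and Becn1 at 0.47 ± 0.10, had 0 of 14 past the rule and a median of 0.03. Caspase-11 and inflammasome partners had 0 of 8 past it and a median of 0.25, with Pycard, the inflammasome adaptor, at -0.96 ± 0.08 and Il18 at 0.66 ± 0.04. Dynamins and related GTPases also had 0 of 9 past the rule, with a median of 0.03. In that list the interferon-induced Mx2 stood at -0.41 ± 0.05 and Dnm1 at 0.34 ± 0.24.

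Markers of several cell types differed between the diets as well, and their part in the ratios of the members was not tested. All 6 enterocyte markers were well above background in both diets. Their summed intensity was 309308 and 387826 in Conv and 592860 and 622859 in FAF. Sis, Lct and Alpi passed as higher, at 1.70 ± 0.07, 1.62 ± 0.26 and 1.31 ± 0.10. The others did not pass, with Fabp2 at 0.44 ± 0.23, Vil1 at 0.39 ± 0.09 and Anpep at -0.15 ± 0.17. The 8 markers of T cells and intraepithelial lymphocytes, all readable in both diets, summed to 8963 and 9223 in Conv and to 6266 and 6403 in FAF. The granzymes Gzma and Gzmb made up 3987 and 1866 of the first sum and stood at -0.50 ± 0.02 and -0.91 ± 0.08. Cd3e had 0.02 ± 0.10 and Cd8a -0.27 ± 0.12. Cd8b1 alone of the 8 markers passed, at -1.33 ± 0.08, 7 were below 0, and the median was -0.29. Natural killer and type 1 lymphoid markers summed to 1906 and 1973 in Conv and to 1829 and 1827 in FAF. These sums include Eomes and Ncr1, which were not well above background. Of the 4 readable markers 3 were below 0, and the median was -0.24. Klrd1 had 0.45 ± 0.08, Prf1 -0.38 ± 0.04, Nkg7 -0.35 ± 0.03 and Tbx21 -0.12 ± 0.03. Myeloid markers summed to 49611 and 51938 in Conv and to 44240 and 42960.4 in FAF, while the median ratio of the 7 was 0.37. Lyz2 alone made up 46092 of the first sum and stood at -0.29 ± 0.05, and 5 of the 7 markers were above 0. The B cell markers summed to 2039 and 1944 against 1156 and 1271, with Cd79a counted in although it was not readable. All 3 adipocyte markers passed as lower, with a median of -2.08 and summed intensities of 4900 and 5038 in Conv against 855 and 919 in FAF. Cfd, at -2.72 ± 0.02, was 6.6-fold lower, close to Ubd at 6.65-fold, and Adipoq stood at -2.08 ± 0.00 and Plin1 at -1.13 ± 0.04. Smooth muscle markers had 0 of 3 past the rule, with a median of -0.49. Goblet cell markers had a median of -0.24, the 2 readable Paneth cell markers one of -0.73, with Mmp7 lower at -1.02 ± 0.12, and endothelial markers 0.34.

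**Figure D4:**
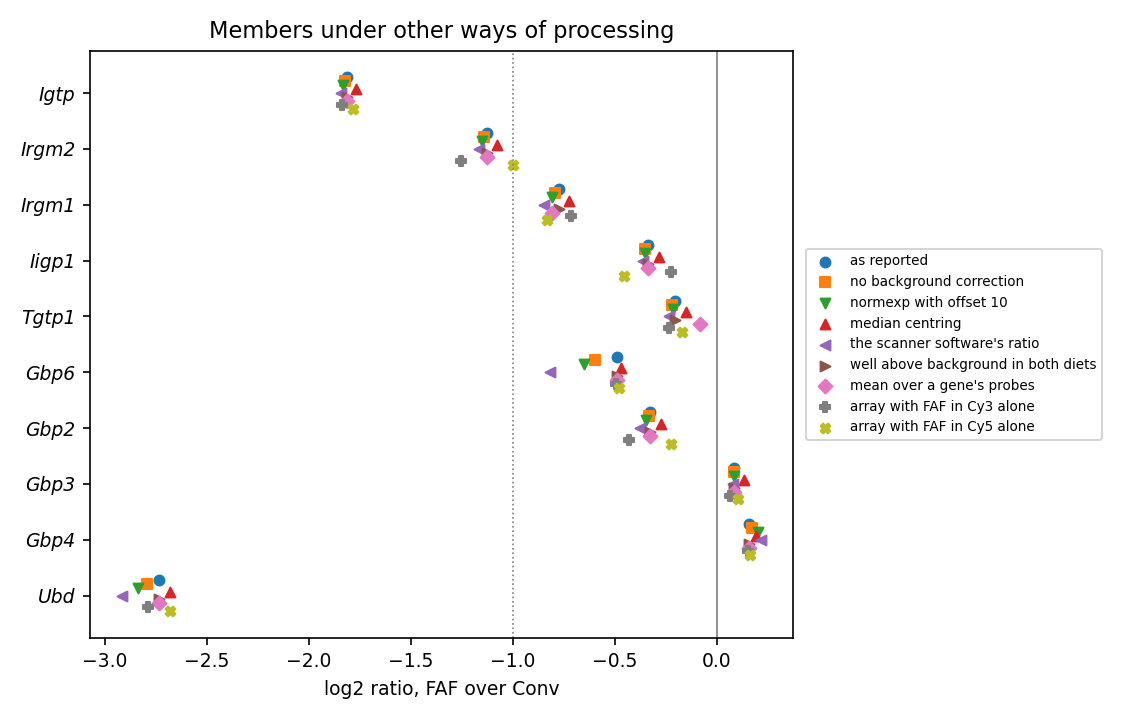
Log2 ratio of FAF over Conv (x axis) of each member (y axis) as reported and under other ways of processing, 1 symbol each. All symbols of a gene stay on the same side of 0, with median centring drawn as the mean over both arrays. Gbp6 moves most, from -0.49 to -0.82 in the scanner software's ratio.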

How the data were processed

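The scanner files, per the file headers, come from Agilent Feature Extraction 11.5.1.1 and hold the spot intensity of each dye on a linear scale, with local background. Per the same file headers they give Cy5 over Cy3 as a log10 ratio that the software smoothed for dye, its p-value from the software's error model, which was not used here, and quality flags, among the other columns deposited. The deposited value table repeats that log10 ratio to within 5.0e-08, with a median of 0 per array.

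In limma 3.58.1 (R 4.3.3), mean intensities went through the normexp background correction (offset 50) and loess normalisation within each array. The log2 ratios were turned to FAF over Conv by the labelled dyes and averaged. Control spots and outlier spots were dropped, no spot was saturated, and repeated spots were averaged. A probe counted as readable when it was well above background in at least 1 diet on both arrays. The brightest readable probe stands for its gene. Intensities were also scaled between arrays by the Aquantile method. A bound ("at least") compares the readable diet with the higher of the other's own signal and the lowest readable signal.

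With 1 RNA sample per diet no test between diets exists. The calculation was run on simulated data whose noise was set from the spread between these 2 arrays. That run cannot speak to spread between mice, and nothing is drawn from it here. The members, the lists and the naming rule were chosen with earlier results of these data known. That rule names every member, the rest of both families, and from each list up to 4 genes that pass the rule of size or otherwise the 2 of largest absolute ratio. It adds Ifng, its receptors, Irf1 and the nearest genes outside the families. One gene that the rule names is not reported here. Array names were updated to RefSeq through the accession for 27662 probes. The alternatives were 10 on the values and 2 on the rule of size.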

Additional observations from a re-analysis of the deposited data

How the results depend on the processing

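Each of the 10 members kept the sign of its mean ratio under all 10 alternatives on the values. Changing the filter on dim probes left every member at its reported value, so it could not alter a sign. Under median centring the arrays lay on opposite sides of 0 for Iigp1 (0.25 and -0.82), Tgtp1, Gbp2, Gbp3 and Gbp4. The medians of both families and their difference moved by less than the spread between the arrays under the 10 alternatives. On the single arrays the difference was 0.53 and 0.77. Ubd went from -2.73 to -2.84 with an offset of 10 and to -2.92 in the scanner software's ratio and the deposited value table, which repeats that ratio. Of 414 genes past the rule of size, 263 higher and 151 lower, other settings gave 265 with median centring (183 and 82), 837 with the software's ratio or the value table (487 and 350), 1391 at a mean of 1.5-fold (775 and 616) and 49 at 4-fold (31 and 18). Among the members, Ubd alone passed at 4-fold (1 gene), Irgm1 was added at 1.5-fold (4 genes), and Irgm2 was lost under median centring (2 genes), where the dye trend stays in each array and its arrays stood at -0.25 and -1.91. The cause of the other shifts was not tested. Gbp6, which is dim, moved with the background correction, and 1 RNA sample per diet limits every ratio.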

Other observations

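The motifs of the member promoters were also read across the other genes, with no test. Among 11468 readable genes with a RefSeq window, members left out, the median ratio was -0.01 with 0.75% lower and 1.74% higher by the rule of size. The 434 genes with an ISRE match had a median of -0.02, with 0.922% lower and 2.53% higher. The 956 genes with a GAS match had a median of -0.02, with 0.837% lower and 1.88% higher. The 57 with both in 1 window had a median of -0.01, with 1 gene (1.75%) lower and 3 (5.26%) higher. Among the other readable family genes with a window, Ifi47, at -0.85, had neither motif. Gbp2b, at 0.53, had 1 ISRE match and no GAS. Gbp5 and Gbp7, at -0.07 and 0.03, each had 2 GAS matches and 1 ISRE match, and Gm12250 had 1 and 2.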
